A study of Mus musculus with 3 samples.

Results

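The 31 genes of the machinery that docks, primes and fuses secretory granules considered here were followed in single cells of mouse islets. The set was drawn up from the genes' known roles and comprised the SNAREs and the SM protein Stxbp2, synaptotagmins and Doc2b, Rab3 and Rab27 GTPases with their effectors, priming and clamping factors, the enzymes that take SNARE complexes apart, and the granule membrane proteins Ptprn and Ptprn2. Of the 31 genes, 30 were listed in the count tables, which held 17226 genes in all, and *Cplx1* was not analysed here.

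The study asked how loss of Taf4, a subunit of the general transcription factor TFIID, from adult beta cells affected islet gene expression. C57/Bl6 mice carried a tamoxifen-inducible Cre under the *Ins1* promoter (*Ins1*::Cre-ERT2) together with floxed *Taf4* alleles (*Taf4* lox/lox) in the mutants or intact alleles (*Taf4*+/+) in the controls, and in the study animals of either genotype received tamoxifen on 3 consecutive days at 11 to 13 weeks of age. The label of the control library reads only wild type, so whether that mouse carried the Cre is not given for it. One library was made from 300 islets of 1 WT mouse, and the others from 300 islets of 2 mutant mice, pooled at 1 week in one and at 5 weeks in the other, all animals being described as male. Because Cre acts where *Ins1* is active, alpha and delta cells of the mutants were not the target cells, and they shared islets with the mutant beta cells. The study also reported that some mutant beta cells turned into alpha-like cells with *Gcg*. It proposed that its alpha populations at 5 weeks were potentially the normal cells and these cells. Whether the mutant alpha classes here hold former beta cells was not tested.

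A hormone granule is brought to the plasma membrane by Rab3 and Rab27 GTPases and the effectors that bind them, is primed by Munc13 and CAPS proteins, and fuses when the vesicle SNARE zips together with syntaxin and SNAP proteins of the plasma membrane. Synaptotagmins and Doc2 proteins read the calcium signal, complexins hold and then release the assembled SNAREs, and NSF with its adaptor alpha-SNAP recycles them. Beta, alpha and delta cells all release peptide hormones in this way.

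Cells were sorted into classes by the share of their UMIs that came from hormone genes. Beta cells had 20% or more *Ins2* and under 3% *Gcg*, alpha cells 15% or more *Gcg* and under 10% *Ins2*, and delta cells 5% or more *Sst*. In the 1-week library the lower limits were 5%, 8% and 1.5% in cells of 5000 or more UMIs, so its classes were cut differently. These limits gave 8269 beta, 2772 alpha and 619 delta cells in WT, 561, 172 and 37 at 1 week, and 5557, 2938 and 1242 at 5 weeks. A level below is the sum of a gene's UMIs over a class as counts per 1000000 (CPM) of the class's UMIs without 8 hormone genes. UMIs were counted from 3′ tags, 1 per molecule, and were not divided by transcript length. As each condition was 1 library, no test between conditions was possible, and 95% intervals (exact Poisson for levels, exact conditional for ratios) cover counting error only.

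The libraries differed in depth and in other respects. They held 19472212 to 39408284 UMIs, and the median beta cell had 1656 UMIs in the WT, 24764 in the 1-week and 3899 in the 5-week library. The WT library, labelled as male, held 17357 UMIs of *Xist* and 0 of the Y-linked *Ddx3y*, whereas the mutant libraries held 17 and 11 of *Xist* and 1488 and 1349 of *Ddx3y*; the sex of the mouse and the genotype cannot be told apart in any ratio over WT. *Taf4* stood at 14.6 CPM in WT beta cells, 13.2 at 1 week and 10.5 at 5 weeks, and since 3′ tags may lie outside the deleted part this checks nothing. Acinar markers summed to between 15541 and 22127 CPM in the 3 classes of WT, to 1685 to 3738 CPM in the 5-week and 7.93 to 27.8 CPM in the 1-week library. The 11 beta markers measured had 4032 to 7226 CPM in beta cells and 124 to 398 in alpha cells, and delta cells had 987 to 1178 CPM of them. The 9 alpha markers had 10662 to 66647 CPM in alpha cells, 533 to 3566 in beta and 1195 to 1849 in delta cells, and the 6 delta markers 8785 to 11663 CPM in delta cells and 148 to 2503 in the others. Each list was thus highest in the class of its name in every library, although none was absent from the other classes.

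The 4 genes of the set that were at least 2-fold lower in beta cells 5 weeks after Taf4 inactivation are *Rab3b*, *Sytl4*, *Rph3al* and *Cadps*, whose values follow. The 250 bases before their RefSeq start are shown because TFIID binds at promoters; the genes were chosen for being lower, and nothing about the cause can be read from the sequences. Sequences are from RefSeq on GRCm38.p6, 5′ to 3′ on the strand of the gene. Capitals mark the letters GGGCGG, known as a GC box, the motif called the CCAAT box, or the letters TATAAA of a TATA box, each searched for on both strands with overlapping matches counted, and the whole stretches of *Rph3al* and *Cadps* and the last bases of that of *Sytl4* lie inside the span of their gene.
Rab3b, chr4:108878820-108879069, plus strand: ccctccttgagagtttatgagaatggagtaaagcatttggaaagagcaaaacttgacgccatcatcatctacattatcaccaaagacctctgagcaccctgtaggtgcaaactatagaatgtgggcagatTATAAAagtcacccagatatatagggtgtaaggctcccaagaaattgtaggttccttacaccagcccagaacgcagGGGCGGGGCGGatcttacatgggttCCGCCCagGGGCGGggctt
Sytl4, chrX:133981813-133982062, minus strand: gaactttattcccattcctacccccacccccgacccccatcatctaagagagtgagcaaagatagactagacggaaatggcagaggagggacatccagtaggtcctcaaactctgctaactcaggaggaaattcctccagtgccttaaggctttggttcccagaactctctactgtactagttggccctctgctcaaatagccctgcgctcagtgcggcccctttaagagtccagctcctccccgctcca
Rph3al, chr11:75925892-75926141, minus strand: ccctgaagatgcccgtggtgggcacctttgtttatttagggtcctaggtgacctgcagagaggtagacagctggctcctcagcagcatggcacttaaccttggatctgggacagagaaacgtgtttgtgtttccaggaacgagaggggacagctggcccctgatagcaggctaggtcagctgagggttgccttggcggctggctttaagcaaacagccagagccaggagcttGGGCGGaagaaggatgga
Cadps, chr14:12823080-12823329, minus strand: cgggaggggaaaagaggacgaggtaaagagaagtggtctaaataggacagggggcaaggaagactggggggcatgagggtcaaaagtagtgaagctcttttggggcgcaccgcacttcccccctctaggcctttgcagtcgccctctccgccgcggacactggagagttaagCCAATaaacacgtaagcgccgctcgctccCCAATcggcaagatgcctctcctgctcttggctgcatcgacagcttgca
The 4 promoters had little in common in these letters. *Rab3b* had 4 GC box matches and 1 TATA box, *Rph3al* 1 GC box, *Cadps* 2 CCAAT boxes, and *Sytl4* none of the motifs. Over 27025 promoters of the same length, 32.9% held a GC box, 34.5% a CCAAT box and 12.97% a TATA box. The promoters of 22 genes of the set were found, and 13, 6 and 2 of these held the motifs in that order.

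As a whole the set was lower in beta cells of the 5-week mutant and differed less from WT in alpha and delta cells. In beta cells it summed to 3180 CPM in WT, and to 3061 and 2623 CPM in the 1-week and 5-week mutants. The log2 ratio of 5 weeks over WT was -0.28 (95% interval -0.31 to -0.25) in beta cells, 0.03 (-0.03 to 0.10) in alpha cells and -0.12 (-0.24 to -0.00) in delta cells. The median ratios of all genes were 0.10, 0.21 and 0.11 in these classes, each above the ratio of the summed set. In alpha cells the sums of the WT, 1-week and 5-week libraries were 1990, 1962 and 2034 CPM. In delta cells they were 2417, 2943 and 2219 CPM. The sum moved with a few abundant members, and without *Sytl4* the beta ratio at 5 weeks was -0.20 (-0.23 to -0.17). At 1 week the ratio over WT was -0.05 (-0.08 to -0.03) in beta cells, a value whose sign turned with the hormones left out, being 0.78 with all hormones kept in the totals and 0.21 with only *Ins1*, *Ins2*, *Gcg* and *Sst* left out.

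Summed by role, the Rab GTPases, their effectors and the priming factors had the lowest ratios in beta cells at 5 weeks. The sums of the plasma membrane SNAREs, the disassembly factors and the granule membrane proteins stayed level or were higher. Single members departed from their role. Outside the lower roles *Syt5* (-0.66), *Vamp8* (-0.48), *Stx3* (-0.45) and *Syt4* (-0.43) were lower too. Inside them *Unc13a* was higher (0.74) and *Rims2* level (0.06). The Rab effectors summed to 468 CPM in WT beta cells, 239 at 1 week and 242 at 5 weeks, a log2 ratio of -0.95 (-1.04 to -0.87) for 5 weeks over WT, and *Sytl4* alone gave 360 of the 468 CPM. Without *Sytl4* the other effectors, *Rph3al* and *Rims2*, summed to 108, 98.2 and 68.0 CPM. Their summed 5-week ratio was -0.67 (-0.83 to -0.50). For the 1-week library this ratio was -0.14 (-0.29 to 0.02), an interval that held 0. That sum joined a lower *Rph3al* (-0.57) with a higher *Rims2* (0.38). With hormones left out, *Sytl4* was thus not the only effector below WT in the 1-week library. The Rab3 and Rab27 GTPases had 408 CPM in WT but 275 and 261 CPM in the mutants, a 5-week ratio of -0.64 (-0.73 to -0.56). The priming and clamping factors stood at 258 CPM in WT, 277 at 1 week and 166 at 5 weeks, with a 5-week ratio of -0.64 (-0.75 to -0.54). The vesicle SNAREs and the synaptotagmins with *Doc2b* differed less, each with a ratio of -0.18. In alpha cells the Rab effectors, the Rab GTPases and the priming factors had ratios of 0.24 (-0.02 to 0.49), 0.14 (-0.06 to 0.33) and 0.21 (0.03 to 0.38) at 5 weeks. The lower sums of these roles in beta cells were therefore not seen in the alpha cells of the same library, although *Cadps* was lower there too (-0.36). The difference between the classes was not tested.

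**Figure D1:**
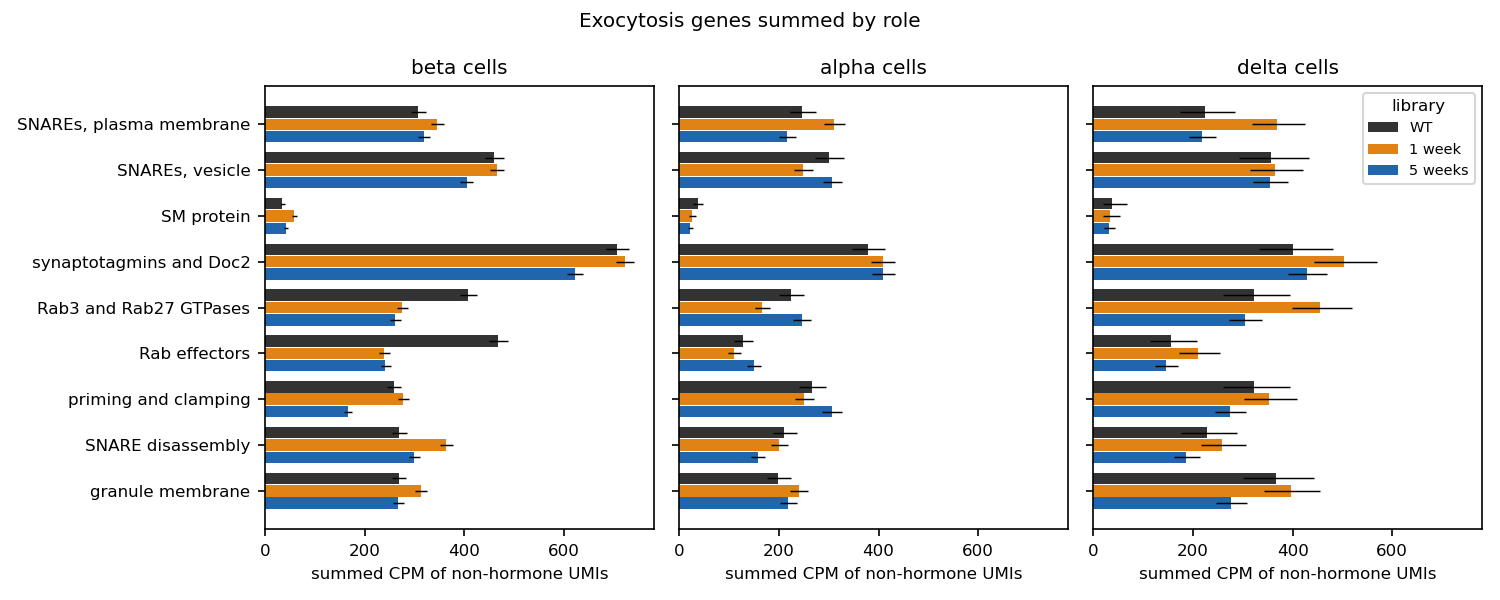
Summed CPM of non-hormone UMIs (x axis) for each role of the set (y axis) in beta, alpha and delta cells, with bars coloured by library and 95% Poisson intervals. In beta cells the Rab effectors stood at 468 CPM in WT and at 239 and 242 in the mutants, of which *Sytl4* alone made up 360, 141 and 174, while the alpha and delta bars for this role lay between 111 and 210 CPM in all libraries.

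Read against all genes, 4 of the 28 members that reached 50 UMIs over the WT and 5-week libraries were at least 2-fold lower in beta cells at 5 weeks, where 5.68% of the 10470 genes measured so were, and 0 were at least 2-fold higher, where 5.99% were. The median log2 ratio was -0.09 over the members and 0.10 over all genes. For 12 members the interval lay below 0, for 6 above 0, and for 10 it held 0. Intervals were not counted in this way over all genes, so these numbers have no background. *Doc2b* and *Rab3c* had too few UMIs in beta cells to be counted here.

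**Figure D2:**
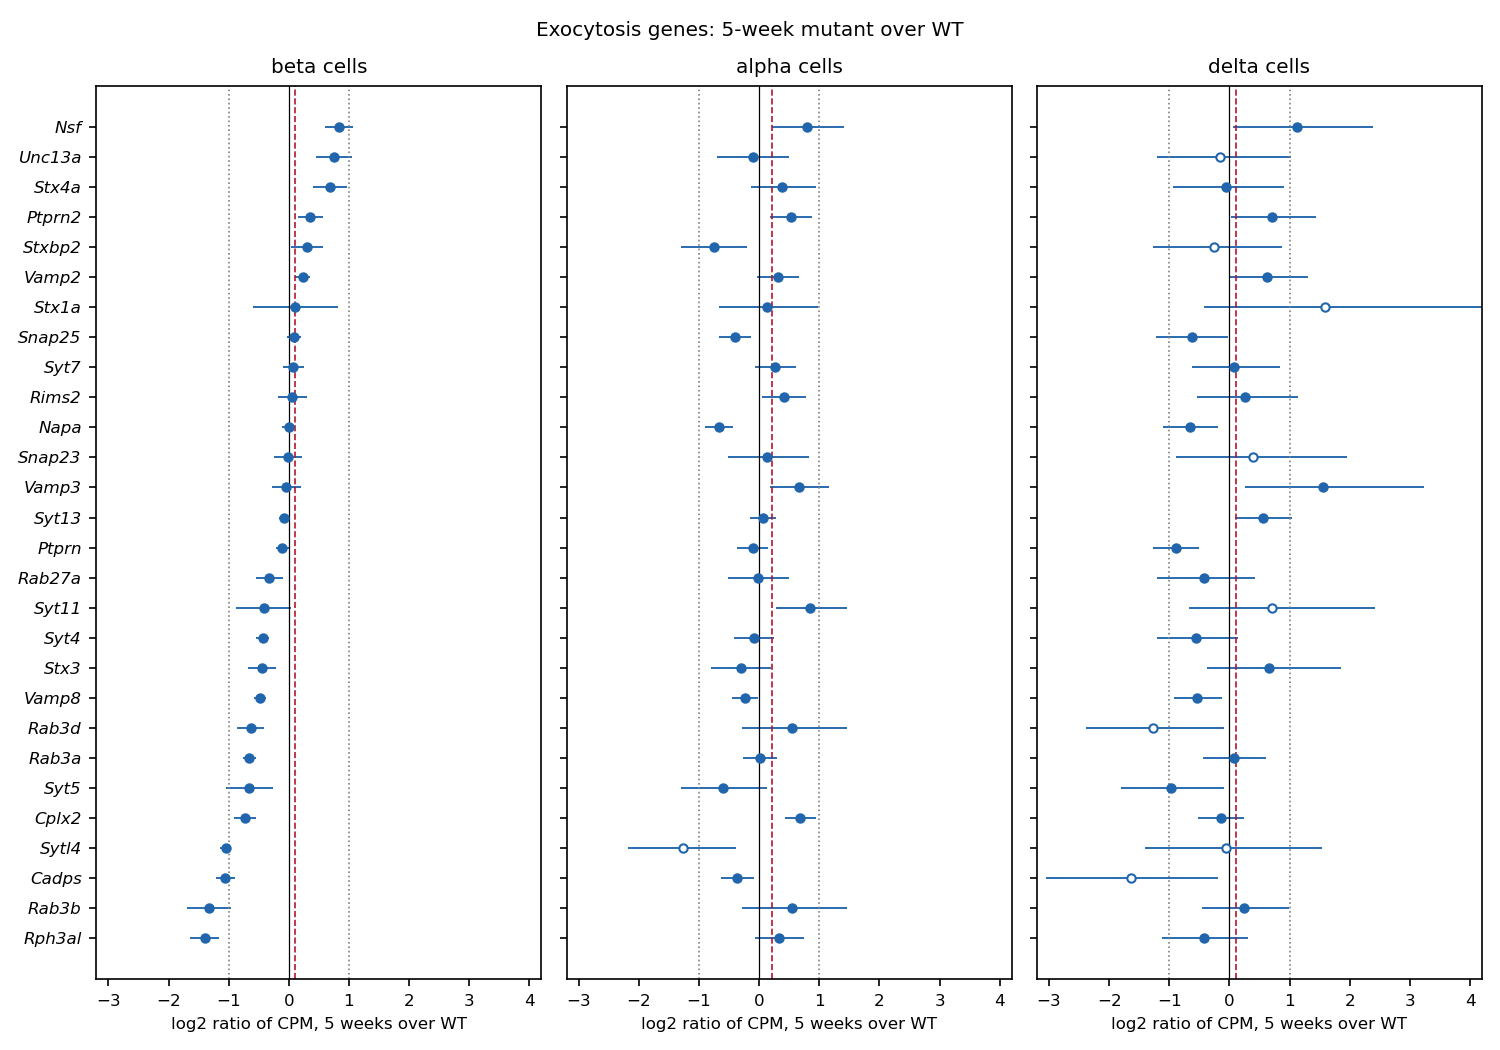
Log2 ratio of CPM, 5 weeks over WT, (x axis) for each member (y axis, ordered by the ratio in beta cells) with 95% intervals for counting error, in the 3 classes; open points are genes under 50 UMIs, dotted lines mark 2-fold and the red dashed line the median of all genes. *Rph3al*, *Rab3b*, *Cadps* and *Sytl4* lie past the dotted line on the left in beta cells, and no filled point does so in alpha or delta cells.

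Among the Rab GTPases, which recruit tethers to the granule surface, every member with enough UMIs was lower in beta cells at 5 weeks. *Rab3b* stood at 30.02 CPM in WT, 34.6 at 1 week and 12.0 at 5 weeks, a 5-week ratio of -1.32 (-1.69 to -0.96). It was thus lower at 5 weeks only, the 1-week value being 0.20 (-0.08 to 0.49) above WT. *Rab3a*, the most abundant Rab of the set in beta cells, stood at 264 CPM in WT, 154 at 1 week and 168 at 5 weeks, with ratios of -0.77 (-0.88 to -0.66) at 1 week and -0.65 (-0.76 to -0.55) at 5 weeks. *Rab3d* went from 59.6 CPM to 34.9 and 38.4, ratios of -0.77 and -0.63. Both genes were thus lower in both mutant libraries on this scale, but with hormones kept in the totals their 1-week ratios turned to 0.06 and 0.07. *Rab27a*, the partner of granuphilin, differed less, with 50.9, 50.01 and 40.7 CPM and a 5-week ratio of -0.32 (-0.55 to -0.09). In alpha cells the 5-week ratios of the 5 Rab genes ran from -0.02 for *Rab27a* to 0.55 for *Rab3b* and *Rab3d*, and each of these intervals held 0. In delta cells the WT, 1-week and 5-week levels of *Rab3b* were 71.4, 188 and 84.0 CPM.

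The effectors of these GTPases included the lowest 5-week ratio of the set in beta cells. *Sytl4*, encoding granuphilin, which docks insulin granules through Rab27a, had 360 CPM in WT beta cells, 141 at 1 week and 174 at 5 weeks. Its ratios were -1.35 (-1.45 to -1.24) at 1 week and -1.05 (-1.15 to -0.95) at 5 weeks. Between the mutant libraries it was higher at 5 weeks by 0.30 (0.19 to 0.41) with hormones left out, the only scale run there. *Sytl4* lies on chromosome X, and the WT library differed from the mutant libraries in *Xist* as described above, so its ratio over WT cannot be told apart from that difference. *Rph3al*, encoding the Rab3 and Rab27 effector Noc2, had 67.2 CPM in WT, 45.2 at 1 week and 25.6 at 5 weeks, ratios of -0.57 (-0.79 to -0.36) and -1.40 (-1.64 to -1.15), the former turning to 0.26 with hormones kept in the totals. In alpha cells it had 50.7, 42.6 and 64.1 CPM, so that at 5 weeks its level in beta cells was below that in alpha cells, which it had exceeded in WT. *Rims2*, a scaffold that links Rab3 to the release site, had 40.7, 52.9 and 42.4 CPM in beta cells, and its 5-week ratio of 0.06 (-0.19 to 0.31) held 0.

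Of the priming and clamping factors *Cadps* and *Cplx2* were lower in beta cells at 5 weeks, and *Unc13a* was higher. *Cadps*, encoding the dense-core vesicle priming factor CAPS1, had 140 CPM in WT, 82.4 at 1 week and 67.2 at 5 weeks, ratios of -0.76 (-0.91 to -0.61), or 0.08 with hormones kept in the totals, and -1.05 (-1.21 to -0.90). In alpha cells it had 124, 146 and 96.5 CPM, a smaller difference of -0.36 (-0.64 to -0.08) at 5 weeks. *Unc13a*, encoding Munc13-1, which opens syntaxin for SNARE assembly, had 24.6 CPM in WT, 24.4 at 1 week and 41.1 at 5 weeks, a 5-week ratio of 0.74 (0.45 to 1.05). The 2 priming factors thus moved in opposite directions within the same cells. *Cplx2*, a complexin that clamps assembled SNAREs, had 94.3 CPM in WT beta cells, 170 at 1 week and 57.2 at 5 weeks, ratios of 0.85 (0.70 to 1.00) and -0.72 (-0.90 to -0.54). In the 17 beta cells within the study's own cell limits the 1-week ratio was -0.66. In alpha cells its order of libraries was the reverse, with 115, 82.0 and 185 CPM and ratios of -0.49 (-0.79 to -0.19) and 0.68 (0.43 to 0.95).

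The calcium sensors were mixed. *Syt7*, encoding the high-affinity calcium sensor of insulin granules, had 77.8 CPM in WT beta cells, 207 at 1 week and 82.0 at 5 weeks. It was 2.66-fold higher at 1 week, a log2 ratio of 1.41 (1.25 to 1.57), and at 5 weeks its interval held 0 (0.08, -0.10 to 0.25). Alpha cells showed the same order, with 74.6, 172 and 90.0 CPM, and so did delta cells, with 71.4, 155 and 75.1 CPM. *Syt4*, an atypical synaptotagmin of immature and mature granules, had 234, 235 and 173 CPM in beta cells and a 5-week ratio of -0.43 (-0.54 to -0.32). *Syt13*, which does not bind calcium, was the most abundant member in beta cells at WT and at 5 weeks, with 360 and 342 CPM, and had 238 CPM at 1 week, a ratio of -0.60 that turned to 0.24 with hormones kept in the totals. Its level at 1 week was lower in alpha cells too, where it went from 179 to 56.7 CPM, a ratio of -1.66 (-1.96 to -1.36), and stood at 187 CPM at 5 weeks. *Syt5*, a calcium sensor of dense-core vesicles, had 20.7, 8.06 and 13.1 CPM in beta cells, ratios of -1.36 (-1.82 to -0.91) and -0.66 (-1.05 to -0.27). *Syt11*, another atypical member, had 14.0, 33.4 and 10.5 CPM in beta cells and 23.2, 54.9 and 41.9 CPM in alpha cells. *Doc2b*, whose protein binds calcium, was counted with only 4, 15 and 17 UMIs in beta cells and with 1 UMI in all alpha cells, where 0 UMIs were found in WT and at 1 week. At this depth no difference of *Doc2b* could be read.

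The SNAP and VAMP proteins differed less than the Rab effectors at 5 weeks. *Snap25*, the SNARE of the plasma membrane that insulin release depends on, had 172, 167 and 183 CPM in beta cells, and both ratios over WT held 0. *Vamp2*, the main vesicle SNARE of insulin granules, had 141 CPM in WT, 186 at 1 week and 165 at 5 weeks, ratios of 0.40 (0.27 to 0.53) and 0.23 (0.10 to 0.36). *Vamp8*, a vesicle SNARE of regulated exocytosis in many secretory cells, had 276, 222 and 197 CPM, ratios of -0.31 (-0.41 to -0.21), or 0.53 with hormones kept in the totals, and -0.48 (-0.58 to -0.38). The total of the 3 vesicle SNAREs was 460, 466 and 405 CPM, so the lower *Vamp8* was partly offset by *Vamp2* in the sum. The WT library held the most acinar RNA. In 56 WT cells rich in acinar markers *Vamp8* had 299 CPM (180 to 467) from 19 UMIs. There the acinar marker genes were also left out of the total, which raises the value against the class levels. What acinar RNA added to the class levels was not tested.

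Of the syntaxins, which anchor the SNARE complex in the plasma membrane, *Stx4a* was higher and *Stx3* lower at 5 weeks. *Stx4a* had 27.7 CPM in WT beta cells, 67.1 at 1 week and 44.3 at 5 weeks, ratios of 1.28 (1.01 to 1.55) and 0.68 (0.40 to 0.96). Its 1-week ratio reversed to -0.47 in the 17 beta cells within the study's own cell limits. *Stx3* had 55.7, 66.4 and 40.9 CPM in beta cells, a 5-week ratio of -0.45 (-0.67 to -0.22), and in alpha cells 39.1, 115 and 31.7 CPM. *Stx1a*, the syntaxin of neurons and insulin granule docking, was low in beta cells, with 5.26, 6.54 and 5.63 CPM, and its ratios held 0. *Snap23* had 46.0, 38.9 and 45.6 CPM and *Vamp3* 43.5, 57.4 and 42.3 CPM in beta cells, with both 5-week ratios within 0.04 of 0. *Stxbp2*, whose protein holds syntaxin ready for assembly, had 34.3, 58.9 and 42.1 CPM in beta cells and a 5-week ratio of 0.30 (0.04 to 0.56), whereas in alpha cells it had 37.0, 26.3 and 21.9 CPM and a ratio of -0.75 (-1.30 to -0.20).

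The disassembly factors and granule membrane proteins were level or higher in beta cells. *Nsf*, the ATPase that separates used SNARE complexes, had 38.6 CPM in WT, 75.2 at 1 week and 68.9 at 5 weeks, ratios of 0.96 (0.73 to 1.20) and 0.84 (0.60 to 1.07). It was also higher in alpha cells, with 22.5, 41.9 and 38.9 CPM, and in delta cells, with 27.2, 61.4 and 59.0 CPM. *Napa*, encoding its adaptor alpha-SNAP, had 231, 288 and 230 CPM in beta cells and 188, 158 and 119 CPM in alpha cells, where the 5-week ratio was -0.67 (-0.90 to -0.43). *Ptprn*, encoding the granule protein IA-2, had 216, 263 and 200 CPM in beta cells and 296, 321 and 160 CPM in delta cells, a 5-week delta ratio of -0.89 (-1.26 to -0.50). *Ptprn2*, its relative, was higher at 5 weeks than in WT in all 3 classes, by 0.36 (0.15 to 0.57) in beta, 0.53 (0.19 to 0.89) in alpha and 0.70 (0.03 to 1.44) in delta cells.

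**Figure D3:**
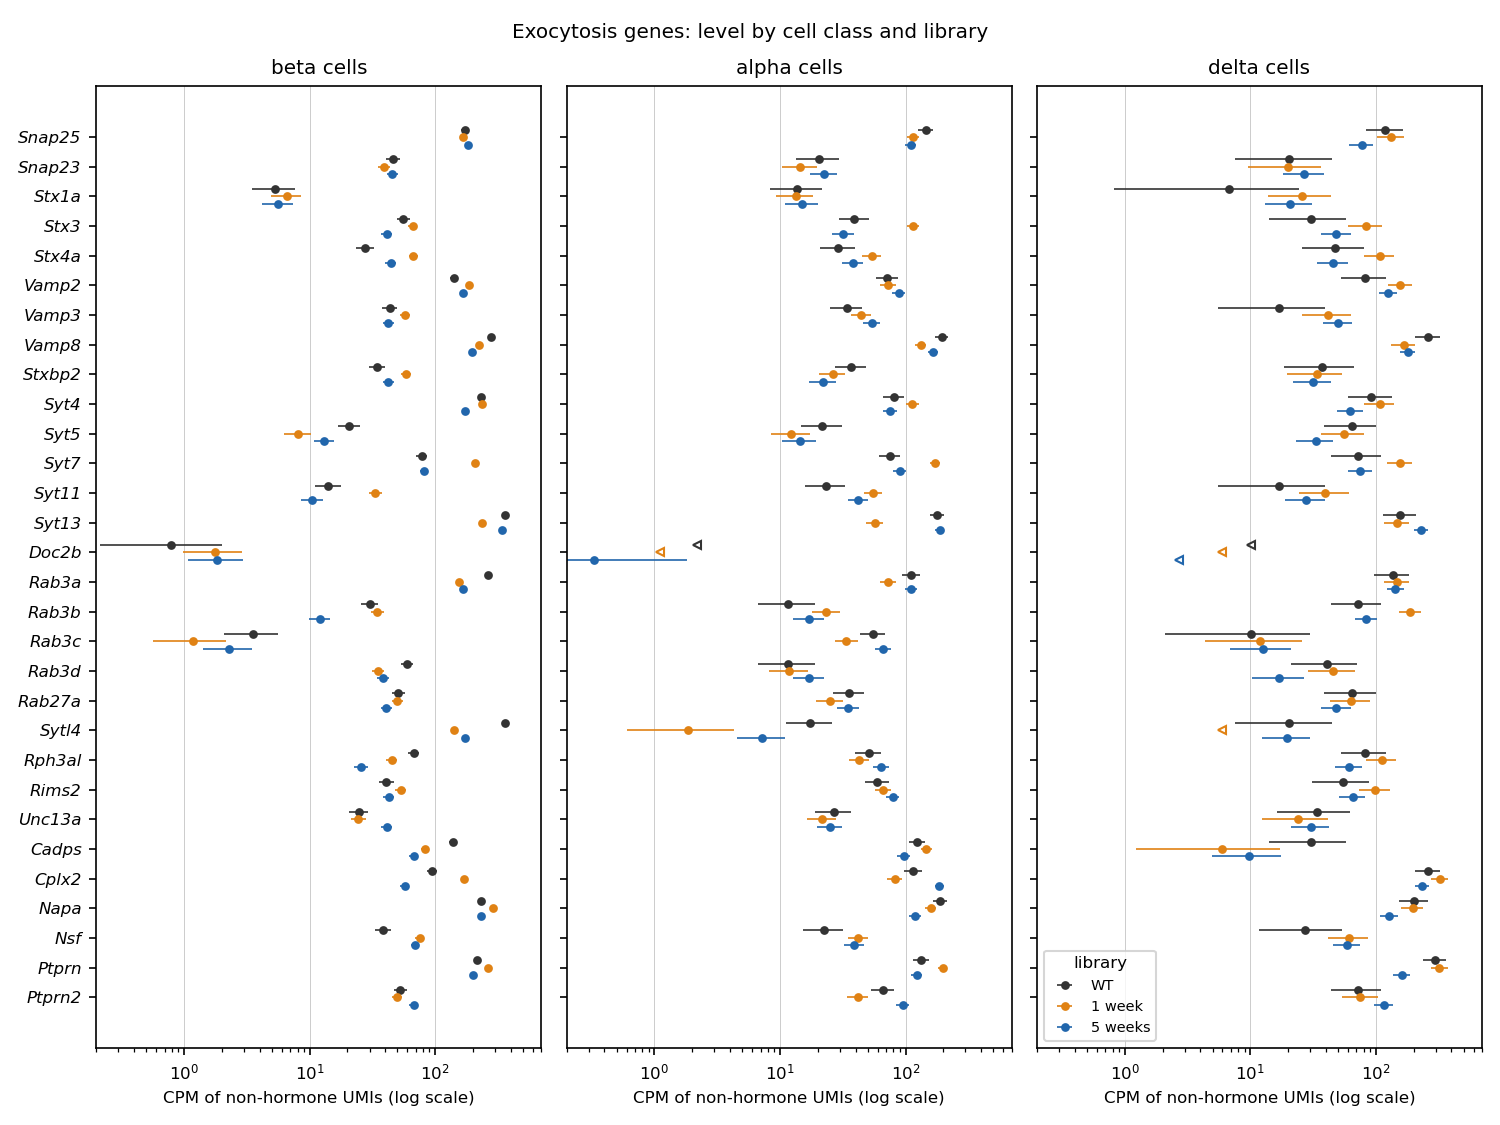
CPM of non-hormone UMIs (x axis, log scale) of the 30 members (y axis, grouped by role) in beta, alpha and delta cells of the 3 libraries with 95% Poisson intervals; open triangles mark genes with 0 UMIs, drawn at the level 3 UMIs would give. *Sytl4* stands at 141 to 360 CPM in beta cells and at 17.4 CPM or less in alpha cells, and *Rab3c* shows the opposite order.

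In alpha cells at 5 weeks 0 of 28 members were at least 2-fold lower, where 0.960% of all genes measured were, and 0 were at least 2-fold higher, where 7.10% were. The median was 0.13 over the members and 0.21 over all genes. *Syt11* had the highest ratio of a member with enough UMIs, 0.85 (0.28 to 1.46), and *Stxbp2* the lowest. In delta cells 0 of 20 members were at least 2-fold lower, where 1.73% of all genes were, and 2 were at least 2-fold higher, where 6.21% were. These were *Vamp3*, from 17.0 to 50.1 CPM on 5 and 56 UMIs, and *Nsf*, on 8 and 66 UMIs, so both WT values rested on few counts.

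At 1 week 2 of 28 members were at least 2-fold lower in beta cells, *Syt5* and *Sytl4*, where 8.00% of all genes measured were, and 3 were at least 2-fold higher, *Syt7*, *Stx4a* and *Syt11*, where 17.0% were. In alpha cells 1 of 27 was lower, *Syt13* (8.26% of all genes), and 4 were higher, *Stx3*, *Syt11*, *Syt7* and *Rab3b* (20.8%). In the 37 delta cells 0 of 17 were lower (6.05%) and 4 were higher, *Stx3*, *Rab3b*, *Stx4a* and *Syt7* (13.8%). The median ratio of all genes was 0.29 in beta and 0.31 in alpha cells, against 0.11 and -0.25 for the members. Setting all genes at a median of 0 gave 5 lower and 1 higher member in beta cells and 3 lower and 1 higher in alpha cells. The 1-week classes held only deep cells, and within the limits of detected genes and mitochondrial UMIs that the study set for its own cells 17 of the 561 beta cells remained. There *Stx4a* stood at -0.47, and with each cell thinned to 1000 UMIs *Rab3b* in alpha cells stood at -0.86, so these 2 calls turned in direction.

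The ratios over WT all rest on the 1 WT library, and the mutant libraries can be set side by side without it. Between 1 week and 5 weeks in beta cells 4 of 28 members were at least 2-fold lower at 5 weeks, where 9.51% of all genes were, and 0 were higher (6.01%). They were *Syt11* at -1.67 (-2.02 to -1.33), *Cplx2* at -1.57 (-1.72 to -1.43), *Rab3b* at -1.52 (-1.85 to -1.21) and *Syt7* at -1.33 (-1.46 to -1.21). *Rph3al* was lower by a smaller step, -0.82 (-1.06 to -0.59), and *Cadps* by -0.29 (-0.45 to -0.14). With hormones left out, *Rab3b* and *Rph3al* were hence lower at 5 weeks also without the WT library. *Rab3a* and *Sytl4* were on that scale lower only against WT. The median of all genes between the mutant libraries was -0.21. Hormones made up 42.8% of beta UMIs at 1 week and 66.5% at 5 weeks. No alternative to leaving them out was run between the mutant libraries, so these directions may depend on it. In alpha cells 1 of 28 members was lower at 5 weeks than at 1 week, *Stx3* at -1.86 (10.7% of all genes), and 3 were higher, *Syt13* at 1.72, *Ptprn2* at 1.20 and *Cplx2* at 1.18 (11.9%). In delta cells 4 of 22 were lower, *Stx4a*, *Rab3b*, *Syt7* and *Ptprn* (7.59%), and 0 were higher (5.65%).

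**Figure D4:**
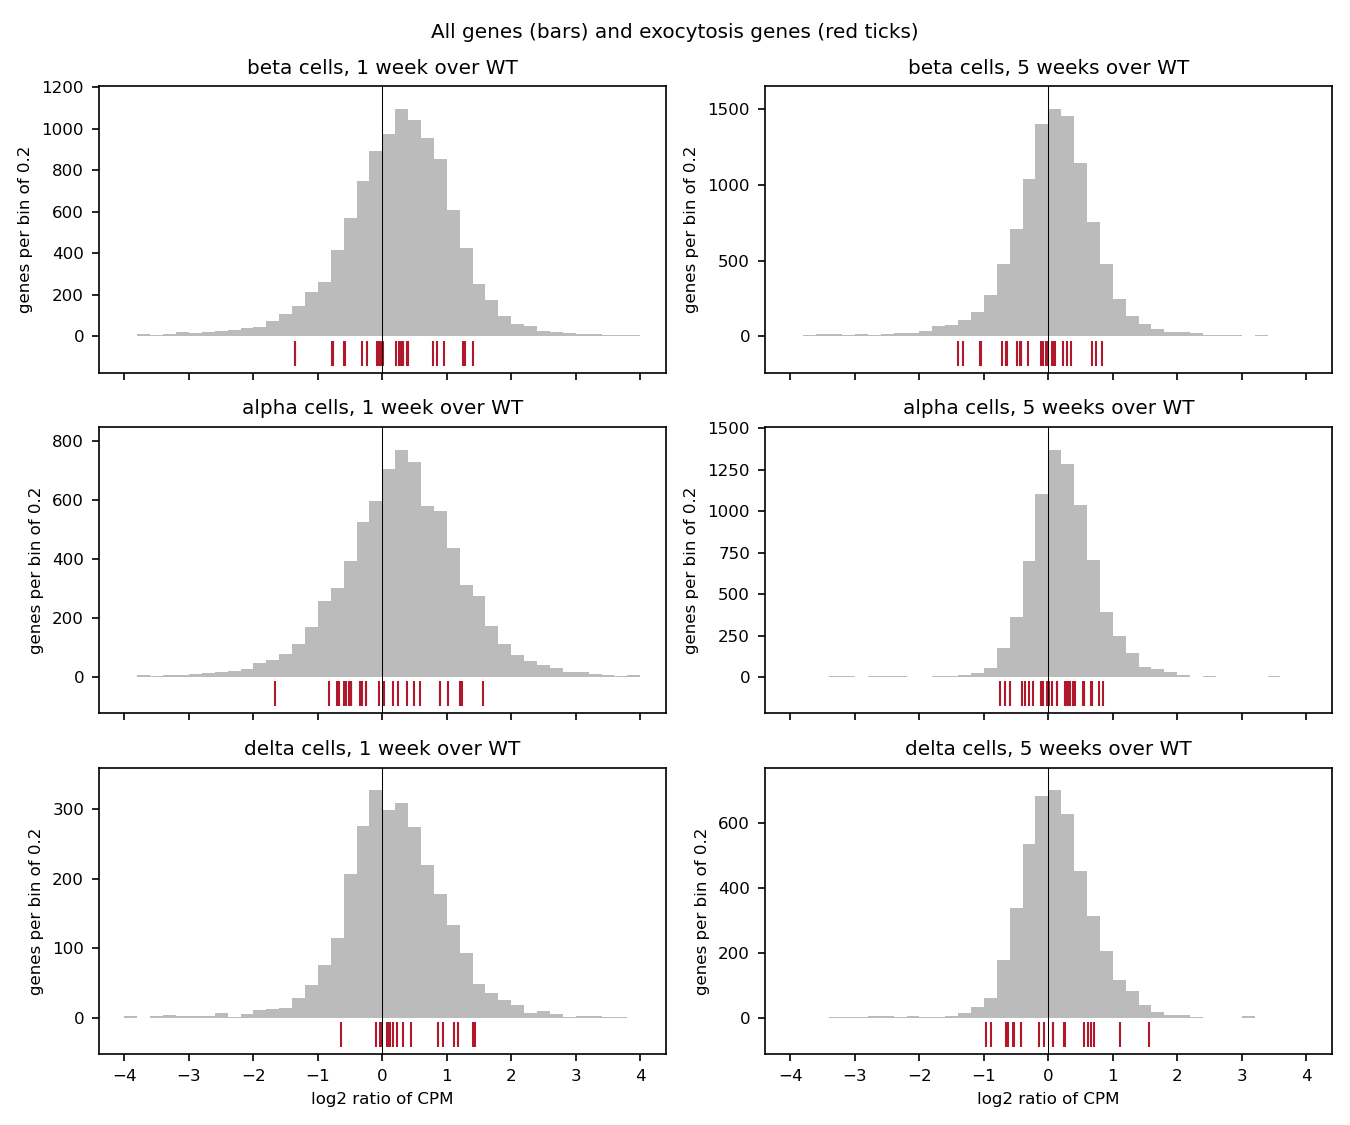
Number of genes (y axis) per bin of 0.2 of the log2 ratio of CPM (x axis) in each class, at 1 week over WT and 5 weeks over WT; bars are all genes that reach 50 UMIs over the compared libraries and red ticks are members of the set. At 5 weeks in beta cells 4 ticks lie at or below -1.05 and the median of the members is -0.09 against 0.10 for all genes.

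In beta cells the share of cells in which a member was seen was lower at 5 weeks, as was the summed level. With each cell thinned to 300 non-hormone UMIs, at least 1 UMI of any member was found in 62.2% (exact 95% interval 61.1 to 63.2) of 8120 WT beta cells, 60.6% (56.4 to 64.7) of 561 at 1 week and 54.2% (52.9 to 55.5) of 5527 at 5 weeks. In alpha cells the shares were 46.1%, 48.3% and 45.3%, an order of the libraries that was not that of the summed levels. In delta cells they were 54.1%, 54.1% and 49.9%, lowest at 5 weeks, as was the summed level. *Sytl4* was found in 10.0% of WT beta cells, 4.81% at 1 week and 5.28% at 5 weeks, and in 0.584%, 0% and 0.205% of alpha cells, where the 0 of 172 allows up to 1.74% at this thinned depth, taken at 3 cells, or 2.12% by the exact interval, and where 2.91% of the 172 cells had a UMI without thinning. Without thinning the *Sytl4* shares in beta cells were 19.5%, 72.4% and 23.8%, which follow the depth of the libraries and not the levels. *Rph3al* was found in 1.81%, 1.25% and 0.724% of thinned beta cells, and *Cadps* in 3.92%, 2.50% and 2.01%. Shallower cells, left out here, numbered 149 of the WT and 30 of the 5-week beta cells.

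The classes differed from each other in which members they used, and this could be tested because every library held all 3 classes. UMIs were summed per class and library, and the 9 sums were fitted with the library as a block, so that p-values measure the spread of the class difference over 3 libraries of different conditions. Of 29 members fitted, 9 were higher in beta than in alpha cells at an adjusted p under 0.05, where 13.1% of 11284 genes were, and 4 were higher in alpha cells, where 12.5% were. The 9 were *Sytl4*, *Rab3d*, *Syt13*, *Syt4*, *Snap23*, *Vamp2*, *Rab3a*, *Nsf* and *Napa*, and the 4 were *Rab3c*, *Stx1a*, *Syt11* and *Rims2*.

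*Sytl4* and *Rab3c* separated the classes most. *Sytl4* had 360, 141 and 174 CPM in beta cells and 17.4, 1.85 and 7.20 CPM in alpha cells of WT, 1 week and 5 weeks, a fitted log2 difference of 4.68 ± 0.37 (SE, adjusted p = 1.5e-06). Per all UMIs its alpha level was 8.85%, 1.70% and 6.57% of its beta level, beside 6.14%, 1.14% and 5.35% for *Ins2*, a gene that alpha cells should lack and on which the classes were cut; the part of stray beta-cell RNA in the alpha value was not tested. *Rab3c* had 3.51, 1.17 and 2.27 CPM in beta cells and 55.1, 33.8 and 66.1 CPM in alpha cells, a difference of -4.72 ± 0.26 (adjusted p = 2.4e-07). Of the Rab3 genes, *Rab3c* was thus higher in alpha cells and *Rab3d* in beta cells in every library.

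The smaller differences between beta and alpha cells lay between 0.52 and 1.45 on the log2 scale. *Syt4* was higher in beta cells by 1.06 ± 0.16 (adjusted p = 0.00031) and *Syt13* by 1.08 ± 0.23 (adjusted p = 0.0035). *Snap23* was higher by 1.02 ± 0.18 (adjusted p = 0.0012) and *Vamp2* by 0.89 ± 0.17 (adjusted p = 0.0019). *Rab3d* was higher by 1.42 ± 0.28, *Rab3a* by 0.78 ± 0.18 and *Nsf* by 0.63 ± 0.17, but these 3 calls were lost without the WT library, with adjusted p of 0.065, 0.085 and 0.088. *Stx1a* was higher in alpha cells by 1.45 ± 0.30 (adjusted p = 0.0031 for a value coded as -1.45) and *Syt11* by 1.34 ± 0.24 (adjusted p = 0.0013, coded as -1.34). The calls of *Nsf* and *Rims2* were lost without the 5-week library (adjusted p = 0.18 and 0.098), and that of *Napa* without any 1 of the 3 libraries (adjusted p from 0.050 to 0.42). Scaling by TMM set the median of all genes at 0.03 where the plain totals set it at 0.22, and with plain totals 13 members were higher in beta cells and the same number as before, 4, in alpha cells.

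Between beta and delta cells 7 members were higher in beta cells, where 10.8% of all genes were, and 5 in delta cells, where 11.1% were. *Cadps* had 140, 82.4 and 67.2 CPM in beta cells and 30.6, 5.95 and 9.83 CPM in delta cells on 9, 3 and 11 UMIs, a difference of 2.87 ± 0.34 (adjusted p = 9.3e-05). *Sytl4* differed by 4.003 ± 0.411 (adjusted p = 3.1e-05) and *Syt4* by 1.43 ± 0.18 (adjusted p = 0.00012). For *Sytl4* the delta cells of WT, 1 week and 5 weeks held only 6, 0 and 22 UMIs. Per all UMIs these were 11.9%, 0% and 23.4% of the beta level of *Sytl4*. *Ins2* in delta cells stood at 9.50%, 1.57% and 10.4% of its beta level. The part of stray beta-cell RNA in the delta value of *Sytl4* was not tested. *Rab3b* was higher in delta cells, with 71.4, 188 and 84.0 CPM against 30.02, 34.6 and 12.0 in beta cells, a difference of -2.11 ± 0.28 (adjusted p = 0.00022). *Syt5* and *Rab3c* were also higher in delta cells, by differences coded as -1.79 ± 0.28 (adjusted p = 0.00059) and -2.31 ± 0.40 (adjusted p = 0.0013), the latter on 3 to 14 UMIs in delta cells.

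Other beta to delta calls depended on single libraries. *Snap23*, *Snap25* and *Syt13* were higher in beta cells by 1.01 ± 0.23, 0.82 ± 0.20 and 0.90 ± 0.24, and all 3 calls were lost without the WT library and again without the 5-week library. *Napa*, higher in beta cells by 0.65 ± 0.19, and *Stx1a*, with a difference of -1.59 ± 0.36, were lost without the 5-week library (adjusted p = 0.30 and 0.15). *Cplx2*, with 258, 323 and 233 CPM in delta cells and a difference of -1.28 ± 0.35 (adjusted p = 0.019), was lost without the WT library (adjusted p = 0.13). The number of members higher in beta than in delta cells was 4 without the WT library and 3 without the 5-week library.

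**Figure D5:**
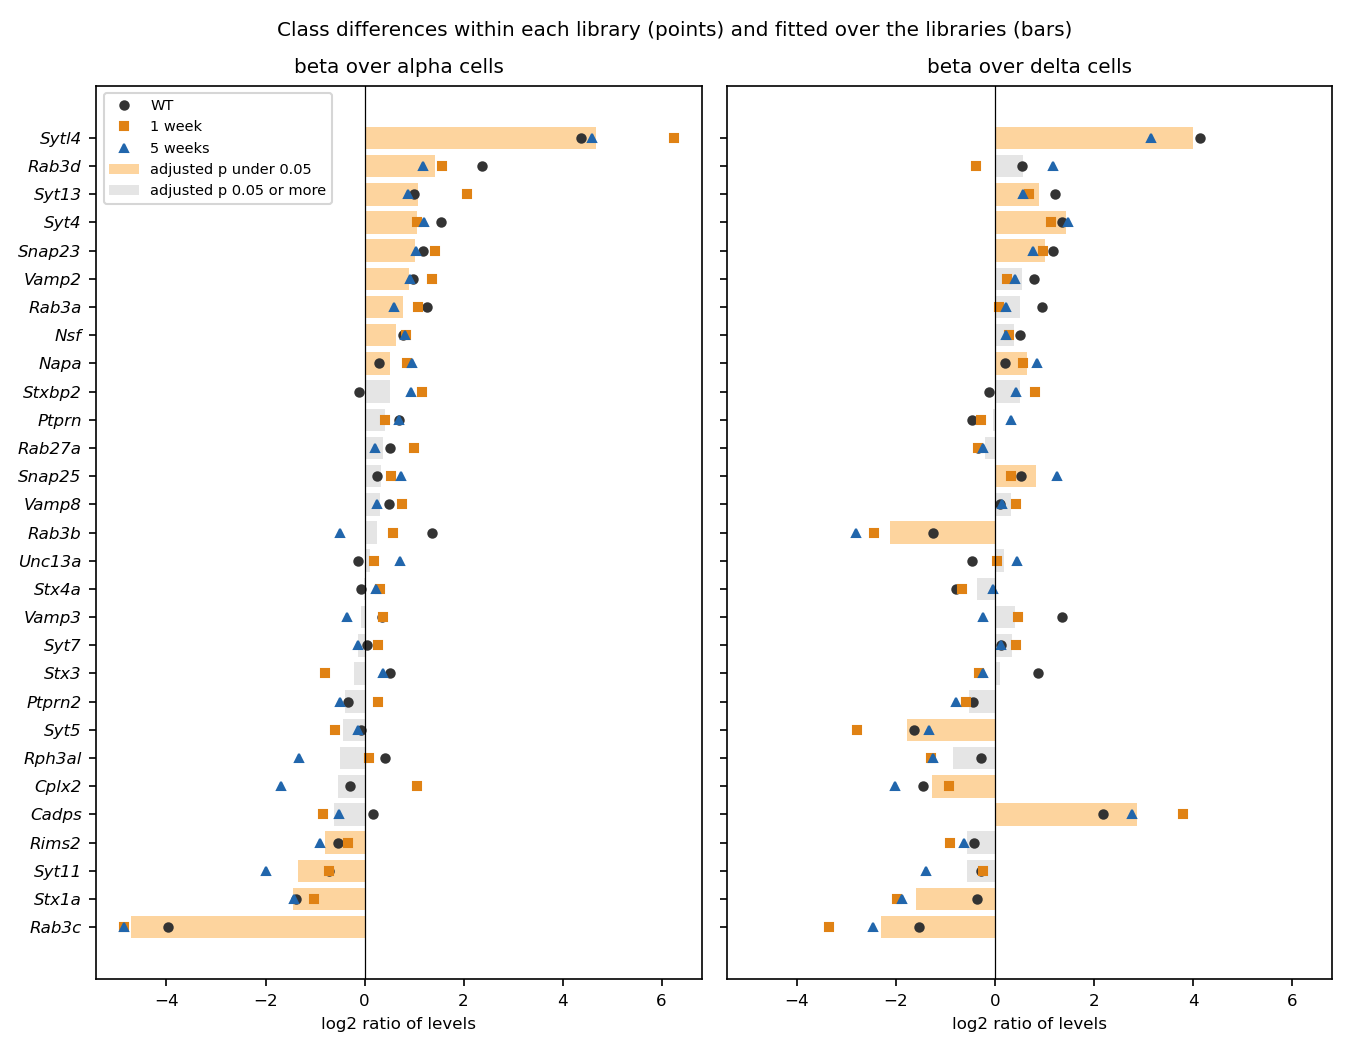
Log2 ratio of levels (x axis) of beta over alpha cells and of beta over delta cells for the 29 members fitted (y axis); points are the ratio within each library, from the totals, and bars the fitted difference, shaded by its adjusted p. The 3 points of *Sytl4* lie between 4.37 and 6.25 over alpha cells and those of *Rab3c* between -4.86 and -3.97. In the delta panel *Sytl4* has no 1-week point, since it had 0 UMIs there.

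For the 4 genes that were at least 2-fold lower in beta cells at 5 weeks, the gap to alpha cells varied with the library. The beta levels by which these genes were chosen enter the ratios, so the choice itself favoured a lower ratio at 5 weeks than in WT. The ratio of beta over alpha cells of *Rph3al* was 0.41 in the WT, 0.08 in the 1-week and -1.33 in the 5-week library. That of *Rab3b* was 1.37, 0.57 and -0.50, and that of *Cadps* 0.17, -0.83 and -0.52. That of *Sytl4* was 4.37, 6.25 and 4.59, the 1-week value resting on 5 UMIs in alpha cells. As each library was measured once, whether these gaps differed between conditions was not tested.

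Cells with endothelial markers, outside the hormone classes, held fewer of these transcripts than beta cells. Of the other cells outside the classes, only those rich in acinar markers were measured. In 198 cells of the 5-week library with endothelial markers (median 1266 UMIs) the set summed to 737 CPM (635 to 850), against 2623 CPM in beta cells. *Snap23*, *Stx4a*, *Vamp3*, *Vamp8* and *Napa*, which serve membrane traffic in most cells, had 70.6 to 90.2 CPM there. *Snap25*, *Syt4* and *Ptprn2* had 1 UMI each, *Ptprn* had 2, and *Rab3b*, *Rab3c*, *Unc13a*, *Syt5* and *Doc2b* had 0, each of which allows up to 11.8 CPM, taken at 3 UMIs. *Rab3a* and *Nsf* lay between, with 47.0 CPM each, and *Vamp2*, *Cplx2* and *Syt11* had 27.4 CPM each. These cells also held *Ins2* at 35470 CPM of all their UMIs, hormones included, and the part of stray RNA in the other values was not tested.

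The other exocytosis genes of the same families had a similar median in beta cells at 5 weeks over WT, but not the same spread. Their quartiles were -0.39 and 0.26, against -0.64 and 0.09 for the set. From a list of 83 further SNAREs, synaptotagmins, Rab effectors, exocyst and active zone genes, 80 were listed in the tables. In beta cells at 5 weeks 3 of 63 were at least 2-fold lower, where 5.68% of all genes were. At least 2-fold higher were 2, where 5.99% of all genes were, and the median was -0.08. Among the lowest of the 53 with at least 100 UMIs were *Rab37*, a secretory granule GTPase, at -1.69 (-1.90 to -1.48), *Rimbp2* at -0.89, *Sytl1* at -0.85 and *Sv2a* at -0.72. *Rab37* had 104 CPM in WT beta cells and 32.1 at 5 weeks, and 84.1 and 99.5 CPM in alpha cells. The highest were *Stxbp4* at 0.78, the exocyst gene *Exoc3* at 0.65, *Stx16* at 0.62, *Exoc2* at 0.58 and *Napg* at 0.47.

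Between classes 13 of 70 of these other genes were higher in beta than in alpha cells (13.1% of all genes) and 8 in alpha cells (12.5%). The largest differences in beta cells' favour were those of the active zone genes *Rims3*, 3.77 ± 0.29, and *Pclo*, 2.61 ± 0.20. Those in favour of alpha cells were *Sytl2*, -5.33 ± 0.42, and *Rab27b*, -5.30 ± 0.82, the latter a close relative of *Rab27a*. Against delta cells 5 were higher in beta cells (10.8% of all genes) and 10 in delta cells (11.1%). The latter were led by *Ppfia2*, -5.31 ± 0.70, and *Syt1*, -5.26 ± 0.55, a neuronal calcium sensor.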

How the data were processed

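Islet cells, dissociated and sorted for live cells, were captured on 10x Chromium, and the 3′ libraries were processed by the authors with bcl2fastq 2.17.1.14, Cell Ranger 3.1 (mm10) and Seurat 3.1.4, as the labels and the study's methods give it. The deposited tables held raw UMI counts per gene and cell barcode. For the WT sample only, the authors removed likely doublets and kept 12000 cells. No doublets were called here, and the 2, 1 and 201 cells of the WT, 1-week and 5-week libraries that met the limits of more than 1 class were left out, as were 1415 cells of the 1-week library under 5000 UMIs. The libraries shared 2, 33 and 5 cell barcodes pairwise.

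Counts were summed per class and library over genes other than *Ins1*, *Ins2*, *Gcg*, *Sst*, *Ppy*, *Pyy*, *Iapp* and *Ghrl* and expressed as CPM (Python 3.11.15, scipy 1.17.1). A gene counted as lower or higher past 2-fold where both libraries together held at least 50 UMIs. Class differences were tested in R 4.3.3 with the quasi-likelihood test of edgeR 4.0.16 on 9 sums, with the library as a block, TMM scaling, filterByExpr and Benjamini-Hochberg adjustment over 11284 genes. DESeq2 1.42.0 was an alternative. Interval and class-fit code was tested on simulated data. Members giving 5% or more of the summed UMIs, past 2-fold or called in a class test were named, and others as examples. Members, lists and tests were chosen with earlier results of these data known. The alternatives for the alpha and delta counts and for the 1-week counts, and the sum of the Rab effectors without *Sytl4*, were chosen after seeing the data. Positions and promoters are from RefSeq tables on GRCm38.p6. The genome given was of another build and was not used. The values of 1 gene of the further exocytosis list are not reported here.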

Additional observations from a re-analysis of the deposited data

Results flagged for a closer look

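In 4 cases a member moved in opposite directions in beta and alpha cells of the same library, with both 95% intervals on their side of 0. The log2 ratio of *Cplx2* at 1 week over WT was 0.85 in beta and -0.49 in alpha cells, a gap of 1.34, and at 5 weeks it was -0.72 in beta and 0.68 in alpha cells, a gap of -1.41. The ratio of *Napa* at 1 week was 0.32 in beta and -0.25 in alpha cells, a gap of 0.57. At 1 week these directions turned with the processing: *Napa* was 0.09 in alpha cells with hormones kept in the totals, and in the 17 beta cells within the study's own cell limits *Napa* was -0.53 and *Cplx2* -0.66. The ratio of *Stxbp2* at 5 weeks was 0.30 in beta and -0.75 in alpha cells, a gap of 1.05. With 1 library per condition, these differences were not tested.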

How the results depend on the processing

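Ratios over WT have no replicate, so counting intervals leave out the spread between mice, and sex, pooling and depth cannot be told apart from genotype. No paired analysis was possible because each condition was 1 library and the labels give no replicate numbers. Of the ratios over WT under an alternative, 1097 stayed within their counting interval, 156 moved and 2 reversed. Only ratios at least 2-fold in the main setting could count as reversed. The moved ones therefore include turns of sign, such as *Cplx2* in beta cells at 1 week, from 0.85 to -0.66. Of the class differences, 427 kept their side of the threshold, 18 passed it newly and 19 lost it. *Rph3al* stayed past 2-fold in beta cells at 5 weeks under all 9 scaling and cell alternatives (-1.49 to -1.23), *Rab3b* under 8 (-1.42 to -0.86), *Sytl4* under 7 (-1.25 to -0.95) and *Cadps* under 6 (-1.15 to -0.91).

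With hormones kept in the totals, the summed ratio at 5 weeks was -0.21 in beta and -0.11 in alpha cells, and at 1 week 0.78 and 0.32; 2 members were lower in beta cells at 5 weeks, and at 1 week 0 were lower and 14 higher. With only 4 hormones left out, the beta sums were -0.18 at 5 weeks and 0.21 at 1 week, with 2 members lower at 5 weeks and 6 higher at 1 week. Without mitochondrial and ribosomal protein genes they were -0.36 and -0.13, the alpha sum at 1 week was 0.082, and 1 member was lower in delta cells. Centred on the median gene, the beta sums were -0.37 and -0.35 and the alpha sums -0.18 and -0.33, with 1 member lower in delta cells at 5 weeks, 5 lower and 1 higher in beta and 3 lower and 1 higher in alpha cells at 1 week. The hormone, mitochondrial and centring alternatives change only the totals.

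Within the study's limits on detected genes and mitochondrial UMIs, the beta sums were -0.32 at 5 weeks and -0.98 at 1 week, 9 members were lower at 1 week on 17 cells, and *Stx4a* at 1 week reversed to -0.47; 1 alpha cell remained at 1 week and its sum was not run. With each cell thinned to 1000 UMIs, the beta sums were -0.32 and -0.11, 2 members were lower in beta cells and 2 higher in alpha cells at 5 weeks, 0 were higher in alpha cells at 1 week, and *Rab3b* there reversed to -0.86. The mean CPM per cell gave 1 lower and 1 higher member in delta cells, and keeping cells of more than 1 class gave 1 lower; the cause was not tested.

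At 1.5-fold, 8 members were lower and 3 higher in beta, 3 and 4 in alpha and 4 and 5 in delta cells at 5 weeks, 6 and 6 in beta cells and 5 lower in alpha cells at 1 week. From 20 UMIs, 1 was higher in beta, 1 lower in alpha and 2 lower in delta cells at 5 weeks and 2 lower in alpha cells at 1 week. From 200 UMIs, 0 were higher in delta cells at 5 weeks, and at 1 week 1 was lower in beta and 2 higher in alpha cells. Leaving out each library in turn gave 3 to 10 members higher in beta than in delta cells.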
